A study of Mus musculus with 18 samples.

Results

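The 10 genes described here are fibroblast growth factors (FGFs) and FGF receptors, out of 78239 genes in the deposited count tables. They were taken by name, with earlier results of these data known. *Fgf1*, *Fgf2* and *Fgf9* encode secreted ligands, *Fgf11*, *Fgf12*, *Fgf13* and *Fgf14* encode FGFs that stay inside the cell, and *Fgfr1*, *Fgfr2* and *Fgfr3* encode receptors. All 10 had enough counts for a test in the retina, and 6 had enough in the cell line.

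The study asked what a permanently active hypoxia-inducible factor does to rod photoreceptors. The retinal groups are 5 libraries from mice injected subretinally with AAV::*nsHif1a* and 5 from mice injected with AAV::eGFP, both at postnatal days 29 to 32, with retinas taken 3 weeks post injection (wpi). nsHIF1A is a Myc-tagged mouse HIF1A altered so that it is neither degraded nor silenced at normal oxygen. Both vectors used a rod-specific promoter and reached only part of the retina, while the RNA came from the whole tissue. The sample labels give the genotype as C57BL/6J, whereas the study's methods describe wild-type 129S6 mice, so the strain is given here as stated and not resolved. The cell groups are 4 libraries of 661W cells transfected with a CMV-*nsHif1a* plasmid and 4 transfected with CMV-eGFP, both taken at 20 h. 661W is a photoreceptor-like line derived from a mouse retinal tumour. The labels do not say whether the cell libraries came from separate cultures, so *p*-values for the cells cover the spread between these libraries only.

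Secreted FGFs bind receptor tyrosine kinases on the cell surface together with heparan sulfate chains. The receptors signal through the adaptor FRS2 to the RAS and MAP kinase cascade, which switches on feedback genes of the *Spry*, *Dusp* and *Etv* families. FGF2 is known in the retina as a survival factor for photoreceptors that becomes more abundant after injury, and elsewhere as an angiogenic factor. The intracellular FGFs do not act through the receptors and are best known as partners of the tail of voltage-gated sodium channels.

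The libraries held 12898220 to 17809585 counts each, and 3 counts corresponded to 0.168 to 0.233 CPM (the count relative to a scaled library size, as edgeR defines it), a floor that covers counting error only. Of 8 classical HIF target genes, such as *Vegfa* and *Pdk1*, 8 were called up in the retina and 7 in the cells, all but *Egln3*. *Hif1a* RNA itself was 667 CPM with AAV::eGFP and 686 CPM with AAV::*nsHif1a* (limma adjusted *p* = 0.504), and 156 against 1558 CPM in the cells (log2FC 3.26). *Xist*, which is transcribed from an inactive X chromosome, had 19492 to 28595 counts in 2 AAV::eGFP and all 5 AAV::*nsHif1a* libraries, and 1 to 3 counts in the other 3 AAV::eGFP libraries. None of the 12 rod markers was higher with AAV::*nsHif1a* (median log2FC -0.20, 5 with an adjusted *p*-value under 0.05). The 11 lens markers with enough counts were all higher (median log2FC 1.89), and none was called. Of 9 cone markers 5 were higher with AAV::*nsHif1a* in the retina. Among the 9, *Gnb3* alone was called up (log2FC 0.52, limma adjusted *p* = 0.00326), where 1.08% of all genes were. In the 661W cells the 9 cone markers together reached only 1.87 to 5.26 CPM. There 8 of the 12 rod and 7 of the 9 cone markers had too few counts for a test.

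*Fgf2* and *Fgf11* rose in the *nsHif1a* retina, and no other member was called. A gene was called up or down at a Benjamini-Hochberg adjusted *p*-value under 0.05 in limma and an absolute log2 fold change (log2FC) above 0.5. By this rule 2 of the 10 members were called up, where 1.08% of all 18859 tested genes were, and 0 were called down, where 0.912% of all genes were. The members were chosen with earlier results known, and the paper reports raised *Fgf2*, so these shares are descriptions. No member was lower at an unadjusted *p*-value under 0.05, and edgeR and DESeq2 called 0 down as well. For the same 2 members every AAV::*nsHif1a* library lay above every AAV::eGFP library, a pattern found for 3.25% of all tested genes. In bulk retina, fewer cells of a type and less RNA per cell cannot be told apart.

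**Figure D1:**
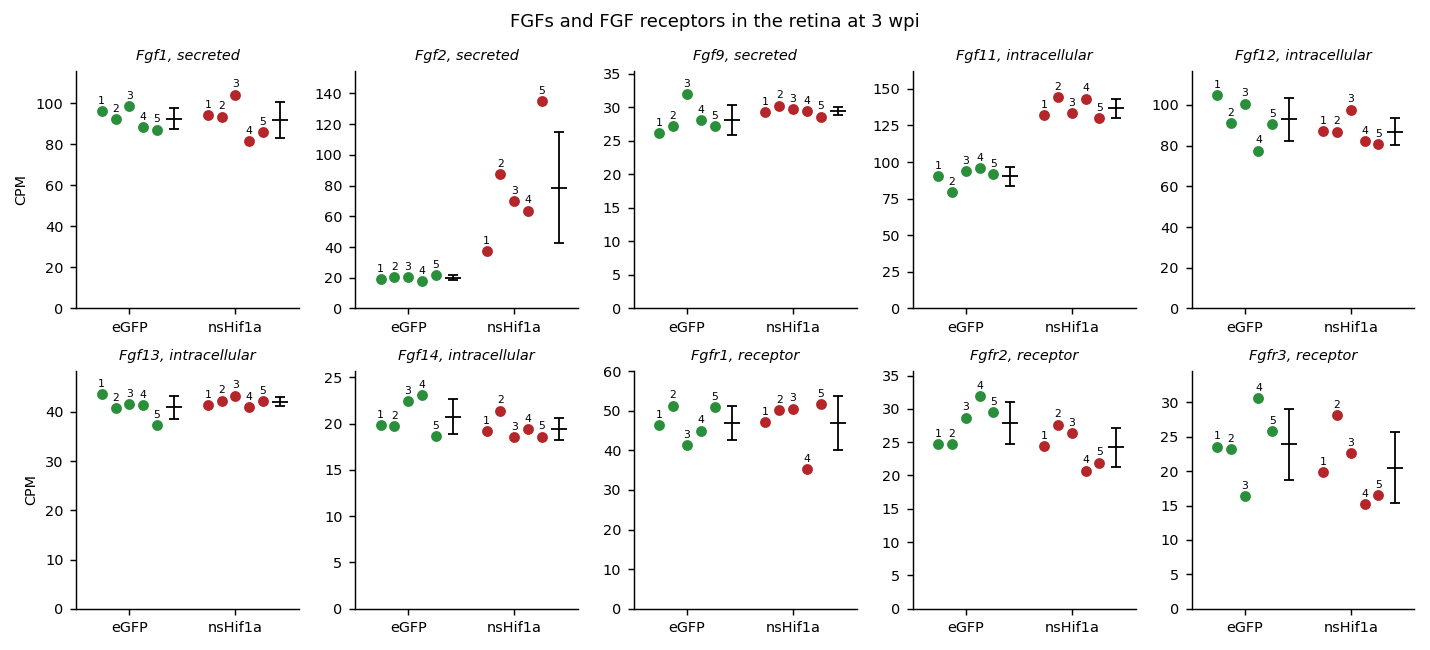
CPM of each member (vertical axes, from 0) in the 5 AAV::eGFP (green) and 5 AAV::*nsHif1a* (red) retinal libraries, with the replicate number above each point and the mean ± SD in black. Only *Fgf2* and *Fgf11* show groups that do not overlap, and the *Fgf2* points of AAV::*nsHif1a* spread from 37.3 to 134.9 CPM.

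Among the secreted ligands, *Fgf2* showed the largest change of the 10 members. *Fgf2* (ENSMUSG00000037225.14) is read from the plus strand and occupies chr3:37402473-37464257 in GRCm39. The *Fgf2* level in the AAV::eGFP retinas was 18.9, 20.5, 20.3, 17.7 and 21.9 CPM in replicates 1 to 5. In the AAV::*nsHif1a* retinas it was 37.3, 87.3, 70.1, 63.7 and 134.9 CPM. The controls were tightly grouped, while the treated libraries differed more than 3-fold among themselves and all lay above the highest control. The mean rose 3.96-fold, from 19.9 ± 1.63 to 78.6 ± 36.2 CPM (SD, n = 5 each), with a log2FC of 1.87 (standard error (SE) 0.27, 95% confidence interval 1.28 to 2.46, limma adjusted *p* = 0.00224). These values rested on 248 to 329 counts per control library and 498 to 2109 per treated library.

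The sequence just before the start of *Fgf2* is shown because HIF dimers bind the core letters ACGTG or GCGTG, and the other rising member lacks them in the matching window. Both cores were searched on both strands in the 300 bases before the canonical transcript start of every protein-coding gene in the gencode M39 annotation of GRCm39. The printed stretch ends 23 bases before the start of the canonical *Fgf2* transcript, where an annotated exon begins. It covers chr3:37402195-37402472 on the plus strand, with the cores in capitals.
Fgf2: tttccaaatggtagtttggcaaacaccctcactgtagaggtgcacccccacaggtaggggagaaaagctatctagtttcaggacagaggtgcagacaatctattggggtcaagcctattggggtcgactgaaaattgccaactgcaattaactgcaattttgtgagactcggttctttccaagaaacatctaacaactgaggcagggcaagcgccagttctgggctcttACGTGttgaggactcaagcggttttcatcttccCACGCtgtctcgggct
The first core, ACGTG, begins 71 bases before the transcript start, and the second, GCGTG on the opposite strand and so printed as its complement, begins 38 bases before it. Across 21769 windows of protein-coding genes, 45.1% held at least 1 core of either kind and 21.1% held at least 2, so such letters are common. A match is a description of the sequence and not evidence of binding.

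The other secreted members stayed within their spread. *Fgf1*, the acidic FGF that binds every FGF receptor, had 87.2 to 98.6 CPM in the controls and 81.4 to 104.2 CPM with AAV::*nsHif1a*. The groups overlapped (log2FC 0.02, 95% interval -0.12 to 0.16, limma adjusted *p* = 0.887). *Fgf9*, a ligand made by many neurons, had 26.2 to 31.97 CPM in the controls and 28.7 to 30.3 CPM in the treated retinas. Its groups overlapped too (log2FC 0.08, interval -0.04 to 0.20, limma adjusted *p* = 0.414). Both intervals lie well below that of *Fgf2*.

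The make-up of the ligand RNA moved with *Fgf2*. Levels of different genes are compared per length, as RPKM (the CPM divided by the exon length in kilobases). Over all 18 secreted ligands of the mouse, *Fgf2* made up 13.4 ± 1.36% of the summed RPKM with AAV::eGFP and 36.3 ± 10.7% with AAV::*nsHif1a* (SD, n = 5 each). The lowest treated library had 22.1% and the highest control 15.4%, so the groups did not overlap. *Fgf1* made up 49.5 ± 1.56% with AAV::eGFP and 35.9 ± 6.80% with AAV::*nsHif1a*, although its own level did not pass the test. The summed RPKM of the 18 ligands was 21.6 to 24.7 in the controls and 25.7 to 39.9 in the treated retinas.

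The 5 AAV::*nsHif1a* libraries had the same order for *Fgf2* as for the summed CPM of the 8 HIF target genes. From replicate 1 to 5, *Fgf2* was 37.3, 87.3, 70.1, 63.7 and 134.9 CPM, and the HIF target sum was 979, 1335, 1216, 1203 and 1472 CPM. Replicate 1 was lowest and replicate 5 highest for both, followed downwards from 5 by 2, 3 and 4. The summed CPM of 10 genes listed for gliosis, the stress response of Müller glia, had this order as well, with 576, 914, 763, 702 and 1516 CPM. Replicates 1 and 4 lay within the control range of the gliosis sum, 503 to 745 CPM, although their *Fgf2* values were above every control. All 10 genes of the gliosis list were higher with AAV::*nsHif1a*, and *Socs3*, *Stat3*, *Edn2* and *Lif* were called up. *Gfap* was not (log2FC 0.73, limma adjusted *p* = 0.144), and the paper counts *Edn2* among genes of vascular development and angiogenesis. *Cp* alone had a mean of 354 CPM in the controls. The list therefore does not show which cells changed. All 10 microglia markers were higher (median log2FC 0.96) and 0 were called, with sums of 31.2 to 191.6 CPM in the controls and 62.5 to 195.3 CPM in the treated retinas. The rod marker sum was lowest in replicate 5, 42129 CPM, and highest in replicate 1, 55230 CPM, against 53154 to 59151 CPM in the controls. The part of these marker shifts in the *Fgf2* result was not tested. Over 5 libraries these orders are descriptions.

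**Figure D2:**
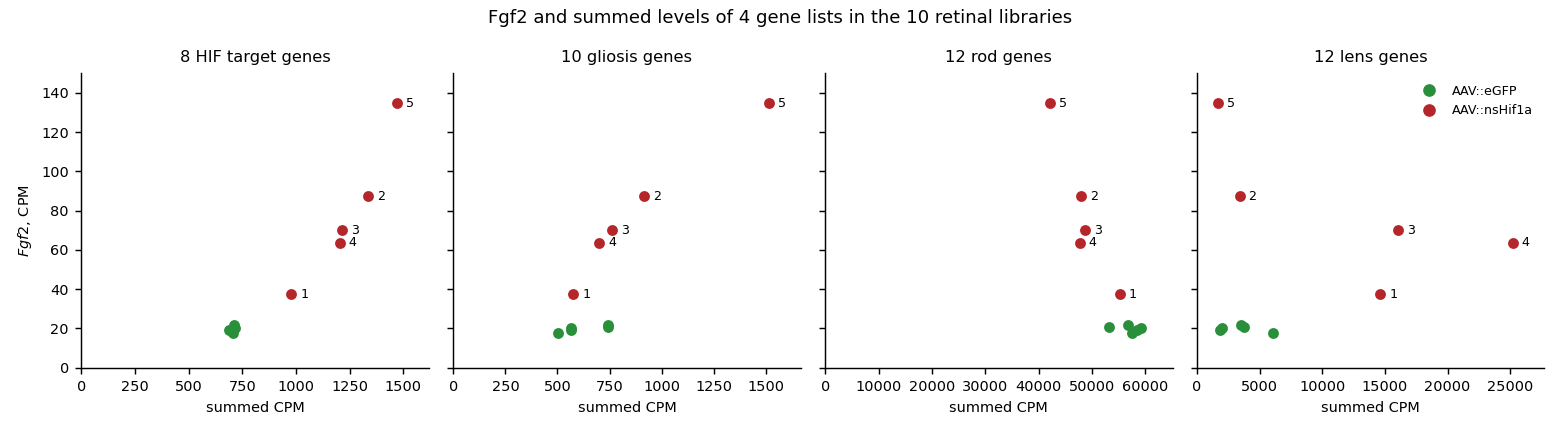
*Fgf2* CPM (vertical axis) against the summed CPM (horizontal axes) of 8 HIF target, 10 gliosis, 12 rod and 12 lens genes, 1 point per retinal library, AAV::eGFP in green and AAV::*nsHif1a* in red with its replicate number. The red points rise in the same order with the HIF target and gliosis sums, and the libraries with the highest lens sums, 1, 3 and 4, are the 3 with the lowest *Fgf2* in that group.

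Lens RNA did not move with *Fgf2* in this way. The 12 lens markers summed to 14641, 16056 and 25212 CPM in AAV::*nsHif1a* replicates 1, 3 and 4, and to 3387 and 1689 CPM in replicates 2 and 5, which had the most *Fgf2*. With the γ-crystallin level as a covariate the log2FC of *Fgf2* was 2.30 (limma adjusted *p* = 0.000291). Without replicates 4 and 5, the libraries with the highest γ-crystallin share and the highest *Fgf2* (chosen with the data in view), it was 1.72 (limma adjusted *p* = 0.00467). Within the 7 retinal libraries with *Xist* RNA, 2 controls and 5 treated, it was 1.88 but no longer passed (limma adjusted *p* = 0.0698). With the *Xist* class as a term over all 10 libraries it was 1.88 and passed (limma adjusted *p* = 0.0225). In that fit the controls without *Xist* RNA added only to the estimate of the spread, so the effect still rested on the same 2 controls.

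Among the intracellular FGFs, *Fgf11* rose and the other 3 were not called. *Fgf11* (ENSMUSG00000042826.14) is read from the minus strand and occupies chr11:69686894-69692683. It had 90.4, 79.4, 93.7, 95.6 and 92.0 CPM in AAV::eGFP replicates 1 to 5. The AAV::*nsHif1a* replicates had 132.1, 144.4, 133.2, 143.3 and 129.95 CPM. Both groups were tight and lay well apart, unlike the wide treated group of *Fgf2*, and replicate 5, the highest for *Fgf2*, was the lowest here. The mean rose 1.51-fold, from 90.2 ± 6.35 to 136.6 ± 6.74 CPM (SD, n = 5 each), with a log2FC of 0.60 (SE 0.05, interval 0.49 to 0.72, limma adjusted *p* = 0.000153). Within the libraries with *Xist* RNA the log2FC was 0.70 (limma adjusted *p* = 0.0110). The log2FC sat close to the 0.5 threshold, and the interval reached just under it.

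The window before the start of *Fgf11* held no HIF core, and it is shown for contrast with that of *Fgf2*. It covers chr11:69692684-69692951 of GRCm39 on the minus strand, directly before the canonical start, and is cut at 268 bases by an annotated exon.
Fgf11: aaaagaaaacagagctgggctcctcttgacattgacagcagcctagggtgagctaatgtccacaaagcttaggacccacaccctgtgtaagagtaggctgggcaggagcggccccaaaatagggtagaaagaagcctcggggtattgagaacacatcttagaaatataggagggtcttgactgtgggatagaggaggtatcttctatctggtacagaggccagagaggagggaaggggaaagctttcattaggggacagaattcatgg
No match says only that neither core is in these letters. Of the other members, *Fgfr3* held 4 cores, *Fgfr2* 2 that overlap as a palindrome, and *Fgf12* and *Fgf13* 1 each, and none of these 4 genes was called in the retina. *Fgf1*, *Fgf9*, *Fgf14* and *Fgfr1* held 0.

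*Fgf12*, *Fgf13* and *Fgf14* differed by less than the spread between libraries. *Fgf12*, on chromosome 16, had 77.5 to 104.9 CPM in the controls and 80.7 to 97.7 CPM in the treated retinas (log2FC -0.07, interval -0.23 to 0.10, limma adjusted *p* = 0.674). *Fgf13*, on the X chromosome, had 37.3 to 43.6 and 41.0 to 43.3 CPM (log2FC 0.06, interval -0.05 to 0.16, limma adjusted *p* = 0.544). *Fgf14*, on chromosome 14, had 18.7 to 23.1 and 18.5 to 21.4 CPM (log2FC -0.07, interval -0.23 to 0.10, limma adjusted *p* = 0.662). Groups overlapped for all 3, and the intervals of all 3 lie inside the 0.5 threshold. The summed RPKM of the 4 intracellular members was 47.3 to 53.6 in the controls and 62.8 to 68.6 in the treated retinas, a shift that *Fgf11* carried.

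None of the 3 receptors was called in the retina, so the rise of the ligand *Fgf2* came with no measured rise of a receptor. *Fgfr1*, the most widely expressed FGF receptor, on chromosome 8, had 41.2 to 51.3 CPM in the controls and 35.3 to 51.7 CPM in the treated retinas (log2FC 0.00, interval -0.20 to 0.21, limma adjusted *p* = 0.990). *Fgfr2*, on chromosome 7, had 24.7 to 31.9 and 20.7 to 27.6 CPM (log2FC -0.17, interval -0.38 to 0.03, limma adjusted *p* = 0.318). *Fgfr3*, on chromosome 5, spread most, with 16.4 to 30.6 and 15.2 to 28.1 CPM (log2FC -0.16, interval -0.55 to 0.23, limma adjusted *p* = 0.649). The values of *Fgfr2* and *Fgfr3* were below 0 but within the spread between libraries. Together the receptors summed to 12.7 to 16.8 RPKM in the controls and 10.6 to 16.3 RPKM in the treated retinas.

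In the transfected 661W cells no member was called, and *Fgf11* came closest. Here 0 of the 6 tested members passed in limma in either direction, where 1.21% of all 15962 tested genes were called up and 0.0626% down. At an unadjusted *p*-value under 0.05 there were 2, *Fgf11* and *Fgfr2*, where 20.7% of all genes stood at that level. edgeR called 0 members and DESeq2 1, *Fgf11*. The groups did not overlap for the same 2 of 6 members, a pattern found for 13.6% of all tested genes.

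*Fgf11* had 3.00, 3.11, 3.52 and 4.05 CPM in eGFP replicates 1 to 4. In the *nsHif1a* replicates it had 7.64, 7.57, 5.02 and 4.49 CPM. Every treated library lay above every control, although replicates 3 and 4 only narrowly. The means were 3.42 ± 0.476 and 6.18 ± 1.66 CPM (SD, n = 4 each), a 1.81-fold difference with a log2FC of 0.83 (SE 0.20, interval 0.38 to 1.29) and an adjusted *p*-value of 0.0641 in limma. It rested on 48 to 60 counts per control and 76 to 136 per treated library.

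*Fgf2*, the member with the largest change in the retina, showed no such rise in the cells. It had 2.64, 1.68, 3.64 and 4.50 CPM in eGFP replicates 1 to 4 and 1.07, 1.12, 3.91 and 3.73 CPM in *nsHif1a* replicates 1 to 4. The treated values fell into a low pair and a high pair, the low pair below every control and the high pair among them, and the groups overlapped. The log2FC was -0.55 (SE 0.48, interval -1.63 to 0.53, limma adjusted *p* = 0.557) on 16 to 67 counts per library. Without *nsHif1a* replicate 1 it was 0.30 and without replicate 3 it was -1.28, so its sign rested on which libraries were included. The interval lay below the log2FC of 1.87 measured in the retina, but that value has its own error. The direct comparison of the 2 effects, given below, did not pass in limma (adjusted *p* = 0.208).

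*Fgf1* was barely detected in the cells, with 13 to 31 counts per library and means of 1.33 ± 0.252 and 1.46 ± 0.299 CPM (SD, n = 4 each; log2FC 0.12, interval -0.41 to 0.65, limma adjusted *p* = 0.814). *Fgfr1* was abundant, at 353.1, 364.4, 393.1 and 420.8 CPM with eGFP and 306.4, 292.8, 391.2 and 404.7 CPM with *nsHif1a* (log2FC -0.16, interval -0.40 to 0.07, limma adjusted *p* = 0.411). Its treated replicates 1 and 2 lay below every control, while 3 and 4 lay among them. *Fgfr2* had 17.98 to 22.8 CPM with eGFP and 15.99 to 17.6 CPM with *nsHif1a*, groups that did not overlap (log2FC -0.23, interval -0.45 to -0.02, limma adjusted *p* = 0.213). *Fgfr3* had 8.54 to 9.77 and 7.41 to 9.70 CPM and overlapped (log2FC -0.14, interval -0.40 to 0.11, limma adjusted *p* = 0.504). The 4 other members were not tested. *Fgf9* had 1 count in all 8 libraries, and *Fgf12*, *Fgf13* and *Fgf14* had 0, which allows up to 0.223 CPM in the shallowest library.

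**Figure D3:**
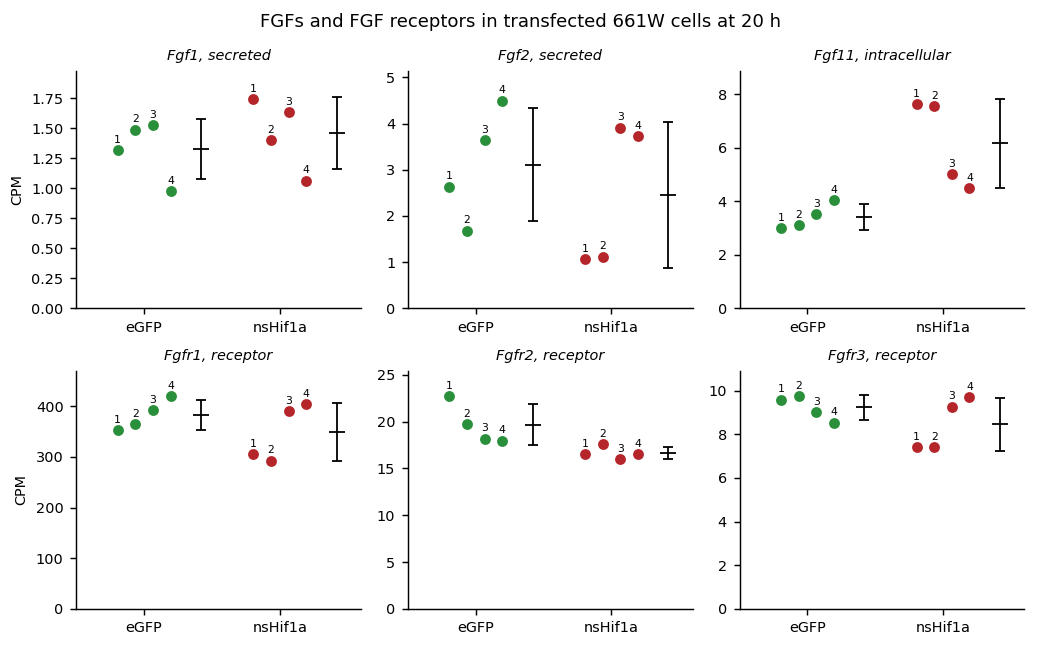
CPM (vertical axes, from 0) of the 6 members tested in 661W cells, 4 eGFP (green) and 4 *nsHif1a* (red) libraries with replicate numbers and the mean ± SD in black. *Fgf11* and *Fgfr2* show groups that do not overlap, and *Fgf2*, *Fgf11*, *Fgfr1* and *Fgfr3* show treated replicates 1 and 2 apart from 3 and 4.

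The cell replicates fell into the sets 1 and 2 against 3 and 4, and the effect differed between the sets for 2 of the 6 tested members, *Fgf11* and *Fgfr1*. The log2 CPM of *Fgf11* was higher with *nsHif1a* by 1.28 in replicates 1 and 2 and by 0.32 in replicates 3 and 4. The log2 CPM of *Fgf2* differed by -0.87 in the first set and by -0.08 in the second. In a fit of the set and treatment together, which was chosen after the data were seen, the effect on *Fgf11* was smaller in the second set by -0.97 (limma adjusted *p* = 0.0149). The effect on *Fgfr1* differed by 0.23 (limma adjusted *p* = 0.00156), and those on *Fgf2* (0.88, limma adjusted *p* = 0.154), *Fgfr3* (0.49, limma adjusted *p* = 0.0703), *Fgfr2* (0.17, limma adjusted *p* = 0.459) and *Fgf1* (-0.10, limma adjusted *p* = 0.928) did not pass. The difference between sets passed for 3179 of 16907 genes, including *Hif1a* (0.52), so it was not particular to FGFs. What distinguishes the sets is not given in the labels. With the set as a term, *Fgf11* passed both thresholds (log2FC 0.84, limma adjusted *p* = 0.0236), in a fit that called 538 genes up against 193 without the term, and with the replicate block it did not (log2FC 0.79, limma adjusted *p* = 0.147).

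**Figure D4:**
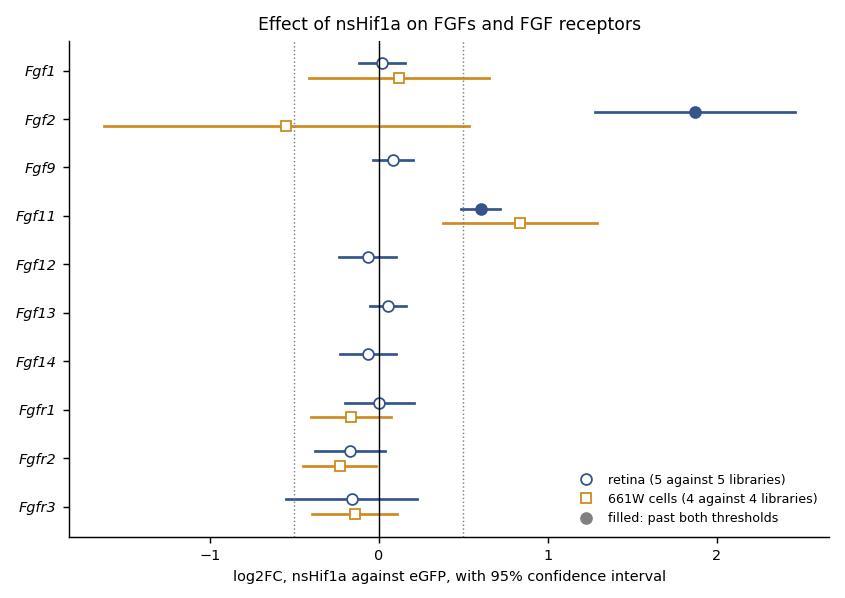
log2FC of *nsHif1a* against eGFP (horizontal axis) with its 95% confidence interval for each member in the retina (circles) and in 661W cells (squares), filled where both thresholds (dotted lines at 0.5 and -0.5 for the fold) were passed. The interval of *Fgf11* lies above 0 in both experiments and that of *Fgf2* in the retina but not in the cells, and *Fgf9*, *Fgf12*, *Fgf13* and *Fgf14* have no value in cells.

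The effects in retina and cells were compared by an interaction term over all 18 libraries. None of the 6 members measured in both passed, where 2.33% of 20999 genes did. For *Fgf2* the effect was higher in the retina by 2.17 on the log2 scale (SE 0.87, interval 0.34 to 4.01, limma adjusted *p* = 0.208). It was the only member with an unadjusted *p*-value under 0.05, and edgeR (2.30, adjusted *p* = 0.0402) and DESeq2 (2.32, adjusted *p* = 0.00376) called it. For *Fgf11* the effects differed by -0.16 (interval -0.59 to 0.28, limma adjusted *p* = 0.781), and the other 4 members had adjusted *p*-values of 0.793 or more. A difference in *Fgf2* between the experiments thus depended on the test. Tissue, cell line, vector, dose and time changed together between the experiments and cannot be told apart.

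Without *nsHif1a* the family was expressed differently in the 2 systems. Per length, *Fgf11* was the highest member in the AAV::eGFP retina, at 29.4 ± 2.07 RPKM (SD, n = 5). *Fgf1* (11.2 ± 0.596), *Fgf12* (10.6 ± 1.20) and *Fgf13* (8.79 ± 0.490 RPKM) followed, each overlapping its neighbour in the order. *Fgfr1* (5.79 ± 0.520), *Fgfr3* (5.35 ± 1.16) and *Fgf9* (5.08 ± 0.403 RPKM) formed a further group of overlapping neighbours. *Fgfr2* stood at 3.84 ± 0.435 RPKM, apart from both neighbours, and *Fgf2* (3.02 ± 0.248) and *Fgf14* (2.48 ± 0.229 RPKM) were lowest and overlapped. With AAV::*nsHif1a*, *Fgf2* reached 11.95 ± 5.50 RPKM, which placed its mean next to that of *Fgf1* (11.1 ± 1.06 RPKM), the libraries of the 2 genes overlapping.

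In the eGFP cells the receptors led. *Fgfr1* stood at 47.2 ± 3.75 RPKM (SD, n = 4), *Fgfr2* at 2.71 ± 0.305, *Fgfr3* at 2.07 ± 0.125, *Fgf11* at 1.11 ± 0.155, *Fgf2* at 0.473 ± 0.185 and *Fgf1* at 0.160 ± 0.0304 RPKM, and no neighbours in this order overlapped. *Fgfr1* made up 90.7 ± 1.35% of the summed RPKM of the 3 receptors in the cells and 38.8 ± 3.49% in the retina. The RPKM values were scaled within each experiment.

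In a joint fit the AAV::eGFP retina exceeded the eGFP cells by a log2 difference of 6.19 for *Fgf1*, 4.85 for *Fgf11*, 2.90 for *Fgf2*, 1.47 for *Fgfr3* and 0.62 for *Fgfr2*. *Fgfr1* was lower in the retina by -2.90. All 6 had an adjusted *p*-value under 0.05 in limma, as did 91.8% of all 20999 genes, so that share says nothing about the members. *Fgf12*, *Fgf13*, *Fgf14* and *Fgf9* had 0 counts in the eGFP cells, and their levels in the AAV::eGFP retina were at least 416-fold, 183-fold, 93.0-fold and 126-fold higher than the floor of 3 counts per library.

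**Figure D5:**
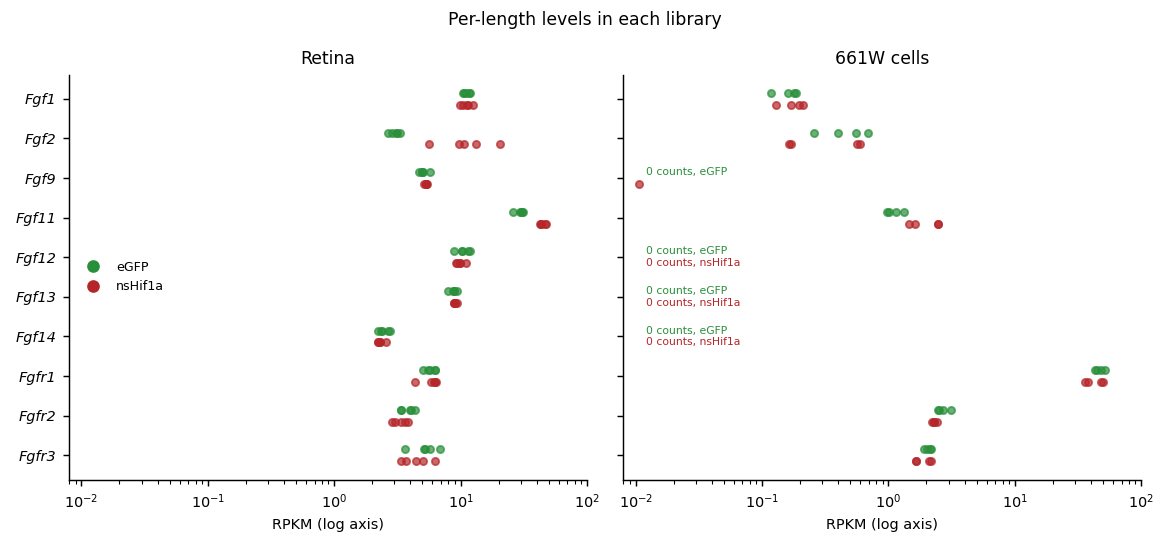
RPKM on a log axis of each member in every retinal (left) and 661W (right) library, eGFP in green and *nsHif1a* in red. *Fgf11* leads in the retina and *Fgfr1* in the cells, *Fgf12*, *Fgf13* and *Fgf14* have 0 counts in all cell libraries, and only libraries with a count are drawn.

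The wider FGF pathway was followed through 8 lists of 108 other genes. In the retina 95 of them were tested, 1 was called up, a share near the 1.08% of all genes, and 0 down. Their median log2FC was 0.02, against 0.00 for all genes, and 20 had an unadjusted *p*-value under 0.05, where 21.7% of all genes did. edgeR also called 0 of them down. In the cells 73 were tested and limma called 0, with a median of -0.03, 21 at an unadjusted *p*-value under 0.05, where 20.7% of all genes were, and 0 called by edgeR. With the replicate block, *Hpse*, the heparanase that cuts heparan sulfate, was called up in the cells (log2FC 0.87, limma adjusted *p* = 0.0242, against 0.205 without the block).

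The gene called in the retina was 1 of the 18 target and feedback genes of FGF signalling. The summed CPM of that list overlapped between the groups, with 459.1 to 684.1 in the controls and 589.1 to 631.3 in the treated retinas. *Ier3*, an immediate early gene of the MAP kinase pathway, had 26.5 to 34.7 CPM with AAV::eGFP and 41.1 to 57.2 CPM with AAV::*nsHif1a* (log2FC 0.76, limma adjusted *p* = 0.000633). Its treated libraries lay above every control, lowest in replicate 1 and highest in replicate 5, as for *Fgf2*. Replicates 2, 3 and 4 had 47.8, 48.2 and 52.8 CPM, the reverse of their order for *Fgf2*. *Ccnd1*, the cyclin of the early cell cycle, passed the *p*-value threshold but not that of the fold (log2FC 0.34, limma adjusted *p* = 0.0075). Of the 18 genes, 16 had a log2FC above 0 in the retina, with a median of 0.22, against 49.4% above 0 and a median of 0.00 over all genes. Among those that did not pass were the feedback inhibitors *Spry4* (log2FC 0.39) and *Dusp6* (0.25) and the transcription factor *Etv4* (0.49), with limma adjusted *p*-values of 0.140, 0.193 and 0.286. In the cells 6 of the 18 were above 0, with a median of -0.05, and 0 were called by limma and edgeR. An unadjusted *p*-value under 0.05 was reached by 6 of the 18 in the retina and 5 in the cells. Over all genes 21.7% and 20.7% reached it.

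In the other lists no gene was called by limma in either experiment. Of the 15 other secreted ligands 4 were tested in the retina and 0 in the cells. None of the 4 passed in limma or had an unadjusted *p*-value under 0.05. *Fgf10*, a ligand of epithelial growth, had 3.05 CPM in the controls and 3.74 CPM with AAV::*nsHif1a* (limma adjusted *p* = 0.344). *Fgfrl1*, a receptor without a kinase domain, had 11.1 and 13.6 CPM in the retina (limma adjusted *p* = 0.250). *Kl*, the co-receptor klotho, was lower in every treated library (log2FC -0.56) and just missed the threshold (limma adjusted *p* = 0.0580). None of the 8 genes of FGF binding and release was called by limma in the retina or the cells. Those at an unadjusted *p*-value under 0.05 were 3 of 7 tested in the retina and 3 of 6 in the cells. Over all genes the shares were 21.7% and 20.7%. Of its 7 genes tested in the retina 6 had a log2FC above 0 (median 0.29), and of its 6 tested in the cells 1 did (median -0.22). *Anxa2*, an annexin of that list, had 33.3 and 58.0 CPM in the retina with overlapping groups (log2FC 0.60, limma adjusted *p* = 0.177).

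Of 12 heparan sulfate proteoglycans and 19 enzymes that build or trim heparan sulfate, 0 were called in the retina or the cells by limma. In the retina 1 of 12 and 4 of 19 tested had an unadjusted *p*-value under 0.05, where 21.7% of all genes did. In the cells 3 of 9 and 4 of 15 tested did, where 20.7% of all genes did. *Sulf2*, which removes sulfate groups from heparan sulfate, had 73.6 to 84.8 CPM in the controls and 87.1 to 108.0 CPM in the treated retinas (log2FC 0.31, limma adjusted *p* = 0.00809), groups that did not overlap. Of 21 adaptors and kinases 0 were called in the retina, with 5 at an unadjusted *p*-value under 0.05, where 21.7% of all genes were. Among them *Mapk3*, which encodes ERK1, had a log2FC of 0.19 there (limma adjusted *p* = 0.0323). The 11 partners of intracellular FGFs, among them the sodium channel genes *Scn1a* and *Scn8a* and the scaffold *Mapk8ip2*, had a median log2FC of 0.01 in the retina, with 0 called and 0 at an unadjusted *p*-value under 0.05. Only 3 of these 11 had enough counts for a test in the cells, where *Fgf12*, *Fgf13* and *Fgf14* were at 0.

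The genes whose pattern was most like that of *Fgf2* over the 18 libraries were *Egln3*, *Cdkn1a*, *Gadd45g*, *Maff* and *Tnnt2*. Likeness was the root mean square difference between log2 CPM values, each gene centred on the eGFP libraries of its experiment, among 14121 genes tested in both experiments. The differences were 0.55 for *Egln3* and 0.59 for *Tnnt2*. *Egln3*, an oxygen sensor and HIF target, had 7.47 to 11.9 CPM with AAV::eGFP and 20.9, 55.4, 38.9, 42.4 and 72.3 CPM in AAV::*nsHif1a* replicates 1 to 5, again lowest in 1 and highest in 5. It too was called in the retina (log2FC 2.38) and not in the cells (log2FC 0.34). For *Fgf11* the closest genes were *P4ha1*, *Gpt2*, *Gem*, *Bhlhe40* and *Tfr2*, with differences from 0.16 to 0.21. *P4ha1*, a collagen prolyl hydroxylase, rose in the cells (log2FC 0.71, limma adjusted *p* = 0.0224) and had a retinal log2FC of 0.45 (limma adjusted *p* = 0.000473), and in the treated cells it was also higher in replicates 1 and 2 (238 and 227 CPM) than in 3 and 4 (151 and 166 CPM). All these genes share libraries and depth with the members. They were picked for their likeness over these same libraries, so the shared orders and effects follow from that choice and are descriptions.

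In the gencode M39 annotation some members overlap other genes, which can bear on their counts. The paper counted reads with an earlier gencode release, so the overlaps behind the counts may differ. *Nudt6* lies antisense to *Fgf2* and shares 2944 exon bases with it, but the counting used the strand. *Nudt6* had 25 to 32 counts in the controls and 20 to 46 in the treated retinas (log2FC 0.23, limma adjusted *p* = 0.502), far fewer than *Fgf2*. The lncRNA gene *Gm43439* shares 255 bases with *Fgf2* on the same strand and had 0 counts in every library. *Ctbp2* shares 314 bases with *Fgfr2* on the same strand and was more abundant (275 CPM in the AAV::eGFP retina, log2FC 0.05), so *Fgfr2* counts are less certain there. Between 0% and 2.93% of the 50-base words of each member occur in another gene on the same strand, so the members' counts could hardly be split with near-identical copies.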

How the data were processed

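RNA-seq was measured in 10 retinal and 8 661W cell libraries. Per the study's methods the authors used Rsubread for alignment (GRCm39) and strand-aware gene counting, and the deposited values are raw counts, not normalized. Depth was 12898220 to 16167522 counts per library in the retina and 13424326 to 17809585 in the cells.

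Samples were grouped by the labels. Genes passing filterByExpr (minimum count 10) were scaled by TMM and tested with limma 3.58.1 (voom with sample quality weights) in R 4.3.3, with Benjamini-Hochberg adjustment over all tested genes. A gene was called at an adjusted *p*-value under 0.05 and an absolute log2FC above 0.5, for the difference between experiments at the adjusted *p*-value alone. edgeR 4.0.16, DESeq2 1.42.0, other scalings, filters, covariates, the replicate block and leaving out libraries were alternatives. CPM and RPKM were computed here from TMM-scaled counts within each experiment, RPKM with exon lengths of gencode M39. The tests were checked on simulated counts of independent libraries, with a spread setting common to all genes. The simulation held no sets of cell replicates and no *Xist* or lens differences, so it does not cover those. The text names the 10 members, *Hif1a*, the 5 genes most like *Fgf2* and *Fgf11*, and genes overlapping a member. Of each pathway list it names the called genes or else up to 2 with the highest mean CPM. Of the marker and HIF target lists it names only some of the called genes. Outside this rule *Ccnd1*, *Spry4*, *Dusp6*, *Etv4*, *Sulf2*, *Hpse*, *Mapk3*, *Scn1a*, *Gfap*, *Cp* and *Xist* were chosen after their values were seen. The members and lists were chosen with earlier results of these data known.

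Same-numbered retinal libraries did not deviate together (correlations of deviations from the group means -0.15 to 0.14). Same-numbered cell libraries did (0.23 to 0.27). However, eGFP replicate 1 was closest to *nsHif1a* replicate 2, and eGFP replicate 2 to *nsHif1a* replicate 1. The values thus did not separate numbered pairs from the sets 1 and 2 against 3 and 4. The numbers were taken as pairs only in the replicate block, and the main fits used no pairing. Some results are not reported here.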

Additional observations from a re-analysis of the deposited data

Results flagged for a closer look

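*Fgfr1* in AAV::*nsHif1a* retina replicate 4 was 35.3 CPM, set apart from the other 4 libraries of its group, which lay between 47.1 and 51.7 CPM. *Fgf9* had 0.0584 CPM in cell *nsHif1a* replicate 3, a single count, and 0 in the other 3 libraries of that group. A lone count beside zeros is always set apart by this measure, so the *Fgf9* value carries no information. In all, 2 of 33 groups were set apart, these *Fgf9* counts included, and chance alone sets apart about 1 in 20.

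The effect of *nsHif1a* in the cells differed between replicates 3 and 4 and replicates 1 and 2 for *Fgf11*, by -0.97 on the log2 scale (limma adjusted *p* = 0.0149), and for *Fgfr1*, by 0.23 (limma adjusted *p* = 0.00156). The test was chosen after the data were seen.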

How the results depend on the processing

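In the retina *Fgf11* was called in all 22 alternatives (log2FC 0.56 to 0.70) and *Fgf2* in 21 of 22. With only the *Xist* libraries *Fgf2* was 1.88 (limma adjusted *p* = 0.0698), leaving 1 member called up, where all-gene calls fell from 203 up and 172 down to 64 and 76. Leaving out 1 library gave 1.71 to 2.04 for *Fgf2* and 2 members called up each time. With the replicate block *Fgf2* was 1.93 and *Fgf11* 0.60 in the retina, both called, and in the cells they were -0.32 and 0.79, neither called. With a minimum count of 30, 2 pathway genes were called in the retina (*Ier3* and *Kl*), and with the replicate block 1 in the cells (*Hpse*). In the cells 1 member, *Fgf11*, was called up with DESeq2 (0.85, adjusted *p* = 0.0100), with the replicate set as a factor (0.84) and in replicates 1 and 2 alone (1.31). In replicates 1 and 2 alone 1 was also called down, *Fgf2* (-0.94, limma adjusted *p* = 0.0428), while 1336 of 16122 genes were called up and 648 down there, against 193 and 10 of 15962 in all 8 libraries. Leaving out 1 cell library gave 0 to 1 called up, 0 to 1 called down, -1.28 to 0.30 for *Fgf2* and 0.52 to 1.13 for *Fgf11*, with calls only without *nsHif1a* replicate 3 (*Fgf2* -1.28, *Fgf11* 1.11) or 4 (*Fgf2* -1.28, *Fgf11* 1.13), which called 1201 up and 677 down or 1194 and 682 of all genes. For the difference between experiments 1 member, *Fgf2*, was called higher in the retina with edgeR (2.30), DESeq2 (2.32), or without cell *nsHif1a* replicate 3 (3.12) or 4 (3.13), with 0 to 1 called and 1.57 to 3.13 over single libraries left out. Without those replicates the difference passed for 1641 genes higher and 1456 lower or 1664 and 1449, against 227 and 262 with all libraries. The causes were not tested. Across all genes the replicate block gave 88 calls up and 0 down in the cells, against 193 and 10, and 127 and 52 in the retina, against 203 and 172. DESeq2 gave 328 and 32 in the cells. Low counts limit *Fgf1*, *Fgf2* and *Fgf11* in the cells.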
